A study of Schizosaccharomyces pombe with 2 samples.

Results

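The genes described here are the fission yeast genes whose mRNAs already ended far past the stop codon in wild-type cells. A protein coding gene was eligible when each of the 2 libraries had 20 or more poly(A) site reads in its window. The window opened at the stop codon. It closed 1000 nt beyond the annotated gene end, or earlier where another gene began on that strand beyond the annotated end. A gene that began between the stop codon and the annotated end did not close the window. An eligible gene was a member when the read-weighted mean distance of its wild-type read ends was 500 nt or more past the stop codon and under 95% of its wild-type reads lay within 24 nt of its top wild-type position. Of 5113 coding genes on chromosomes I, II and III, 3672 were eligible and 450 were members. A further 25 genes passed the 500 nt limit and were left out because their wild-type reads formed a single tight site. Members were thus chosen by their wild-type end positions, so every wild-type value below is a description, and so is every difference between the libraries.

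The study asked how lowering Seb1, an RNA-binding protein related to Nrd1 of budding yeast, changes where Schizosaccharomyces pombe mRNAs are cleaved and polyadenylated. One library came from nmt1-SEB1 cells, in which the strain name places seb1 under the nmt1 promoter, and the other from wild-type cells. Thiamine, a repressor of the nmt1 promoter, was in the minimal medium of both cultures, and both gave total RNA. The nmt1-SEB1 strain is a knock out by its genotype and source labels and a knockdown by the design text, and no clone, age or separate culture is named.

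The 3′ untranslated region (3′ UTR) is the stretch of an mRNA between the stop codon and the poly(A) tail. Its end is set when the cleavage and polyadenylation machinery reads an A-rich hexamer, most often AATAAA or a close relative, a short way before the cut, together with U-rich elements around it. A gene with several such sites can make mRNAs with short or long 3′ UTRs, and the longer forms carry more sequence for RNA-binding proteins and may run into a neighbouring gene. Seb1 binds nascent transcripts near their 3′ ends, and the tetramer TGTA (UGUA in RNA), which holds the GTA core tied to Nrd1-type proteins, is one motif associated with it.

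Sequences up to the top position, the single position with the most reads in a library, of 7 members are shown because they cover the 3 patterns described below. These are a switch to a more distal site, an unchanged distal site and a larger share at a site nearer the stop codon. Each is 30 bases of the RefSeq genome on the transcript strand, 5′ to 3′, and its last base is the deposited end position. Capitals mark AATAAA.
but2, wild type, 485 nt: tactgaattttcattgtcagcttatttaga
but2, nmt1-SEB1, 809 nt: tttggctttcatgctagttagttgctagta
ryh1, wild type, 1129 nt: cccaggcataggcttcaaagacgaccaaaa
ryh1, nmt1-SEB1, 2088 nt: gattgggagcaatattgaagagttcgttaa
ams2, wild type, 641 nt: tttatatgaacactgttattcttgttagca
ams2, nmt1-SEB1, 956 nt: caatgcagagcggataacggtttagtggaa
spc25, wild type, 642 nt: ctatgcttaattgaacatcatcttcatcaa
spc25, nmt1-SEB1, 3381 nt: atcgAATAAAgaaggattaatgtccatgaa
rsc7, both libraries, 2118 nt: acaAATAAAatgtacacgtatcccgcctaa
nap1, wild type, 810 nt: aatacgatttgtttttttttcgttttttta
nap1, nmt1-SEB1, 262 nt: AATAAAaatgcttacagtcgacgtgtttta
mrp17, wild type, 1523 nt: atatggctcAATAAAagtgttagaaatgga
mrp17, nmt1-SEB1, 55 nt: AATAAAaatattcgcagagctgtccaatta

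The but2 stretches lie at II:1271376-1271405 and II:1271700-1271729 on the plus strand, and those of ams2 at III:2004094-2004123 and III:2004409-2004438 on the plus strand. Those of ryh1 lie at I:1193068-1193097 and I:1192109-1192138, and those of spc25 at III:1480496-1480525 and III:1477757-1477786, all on the minus strand. The rsc7 stretch lies at III:1392059-1392088 on the plus strand. The 30 bases that follow it, taccattttTGTAaagtgactTGTAtagta at III:1392089-1392118, hold TGTA in both capital runs. The nap1 stretches lie at III:473580-473609 and III:474128-474157 and those of mrp17 at I:1651765-1651794 and I:1653233-1653262, all on the minus strand. AATAAA is in the printed stretch of the distal sites of spc25 and rsc7, the near site of nap1 and both sites of mrp17, and not in that of the distal sites of but2, ryh1, ams2 and nap1. It is also absent from the 50 nt before the near sites of apm4, php2, pmc4, SPBC1539.02 and hhp1 described below. AATAAA is present in the 50 nt before the near sites of alp41 at 166 nt and psr1 at 142 nt, also described below.

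The wild-type library held 2702105 reads at 114578 positions and the nmt1-SEB1 library 3376142 reads at 213060 positions. The windows of the 450 members held 121233 wild-type and 165903 nmt1-SEB1 reads. Reads of seb1 itself numbered 1848 in wild type and 826 in nmt1-SEB1. The ratio after scaling to all gene reads was 0.362, with a 95% exact interval of 0.333 to 0.393. That is the direction given by the word knockdown in the design text. The seb1 gene is not a member, with mean ends at 134 and 404 nt. There is 1 library per strain, so no difference below has a replicate check and none has a p-value. Intervals and standard errors (SE) are over reads and cover counting error only, since the deposited counts carry no molecular identifiers and copies made by PCR are not independent molecules.

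The members' median of mean ends was 688 nt in wild type and 848 nt in nmt1-SEB1, against 177 and 274 nt in the other 3222 eligible genes. The annotation already gave 389 members (86.4%) a 3′ UTR of 500 nt or more, and the members' median annotated 3′ UTR was 980.5 nt. Of the other 61, 48 had no other coding gene in the window, and 14 of these had no annotated 3′ UTR. Wild-type means ran from 500.05 to 3944 nt. Just inside the limit were oss1 at 500.05 nt, bio2 at 500.06 nt and SPBC1A4.11c at 501.5 nt, and just outside were pob3 at 499.8 nt, glo3 at 498.4 nt and mnn9 at 498.3 nt. For the single-site limit, oxr1 was kept with 94.9% of its wild-type reads within 24 nt of its top position, and SPAC1399.02 was left out with 95.1%.

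Some windows held another gene, and its reads can lengthen the mean end. Counts with and without such members are given apart where stated, and other counts are over all members. In 43 members another coding gene started on the same strand inside the window, and in 22 of these at least 50% of the wild-type reads lay past that start, so the reads can belong to the inner gene. The mug106 window held 16043 wild-type and 6989 nmt1-SEB1 reads, all past the start of gpm1, the glycolytic phosphoglycerate mutase gene, and no read was assigned to mug106 itself. The wsp1 window, named for an actin assembly factor, held 5208 and 7751 reads with 97.5% and 99.7% past the start of btf3. The same held for yip11 with bud20 inside, slx4 with gst3 inside and cdc16 with rps13 inside, at 93.8%, 95.6% and 98.6% of wild-type reads. These inner reads made up 21.4% of all member reads in wild type and 12.9% in nmt1-SEB1. A further 21 members had only a non-coding gene inside, and in 9 of these at least 50% of wild-type reads lay past its start. Among them were the eisosome gene fhn1 at 93.9% (SPNCRNA.133) and the vesicle gene erp5 at 99.3% (SPNCRNA.1476). When the window was ended at the first inner coding start, 420 of the 450 genes still qualified.

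**Figure D1:**
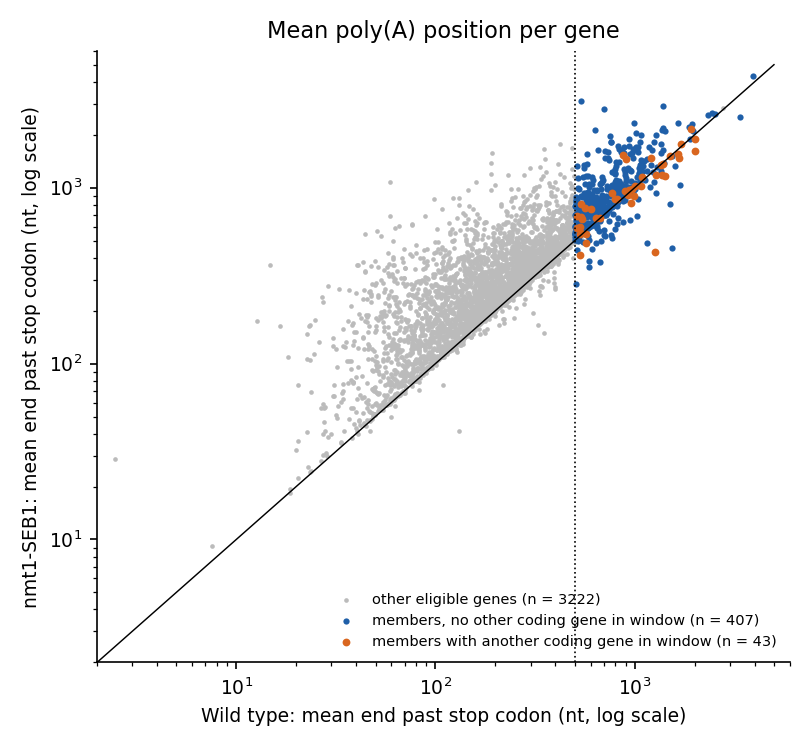
Each point is 1 eligible gene, placed by its read-weighted mean end past the stop codon in wild type (x axis, nt, log scale) and in nmt1-SEB1 (y axis, nt, log scale); the solid line marks equal means and the dotted line the 500 nt limit. Most points lie above the line on both sides of the limit, and 15 members have an nmt1-SEB1 mean under 500 nt.

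Members differed from other eligible genes in how their ends were laid out. Sites were counted as clusters of ends within 24 nt that held 5% or more of a gene's reads, and the top site is the cluster around the top position. In wild type 221 members (49.1%) had 4 or more sites, 201 had 2 or 3 and 28 had 1, while 18.9% of other eligible genes had 4 or more. The rule leaves out single tight sites, which raises these numbers among members. A wild-type site within 300 nt of the stop codon was present in 195 members and an nmt1-SEB1 site there in 128, and 90 members had no wild-type read at all within 300 nt. The mean hides a spread in some genes, since 82 members had a wild-type median end under 500 nt.

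The longest wild-type means among members with 100 or more reads in each library show this spread. SPCC320.06, an uncharacterized gene with an annotated 3′ UTR of 5636 nt, had a mean of 3944 ± 81.0 nt (SE, 182 reads) in wild type and 4304 ± 90.2 nt (SE, 261 reads) in nmt1-SEB1. Its top site moved from 2717 nt, with 25.8% of wild-type reads, to 5259 nt, with 44.1% of nmt1-SEB1 reads. The site at 5259 nt was already present in wild type at 5.49%. The gene of alp41, a GTP-binding protein of tubulin folding, had means of 3359 ± 120 nt (SE, 107 reads) and 2524 ± 184 nt (SE, 126 reads). Its ends were scattered in both libraries, and the top nmt1-SEB1 site, at 166 nt, took 26.2% of reads against 4.67% in wild type. The mitochondrial ribosome gene mrps26 had means of 2333 and 2588 nt, SPBP8B7.32 had means of 2452 and 2644 nt, and the splicing factor gene prp3, which has nnf1 inside its window, had means of 2009 and 1625 nt. The rsc7 gene, for a subunit of the RSC chromatin remodelling complex, was the plainest long 3′ UTR. It used the site at 2118 nt for 90.2% of 1169 wild-type reads and 98.0% of 4039 nmt1-SEB1 reads, and a small site at 73 nt held 5.56% and 0.495%.

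Between the libraries, 334 members (74.2%) had an nmt1-SEB1 mean end 20 nt or more further out than in wild type, 62 (13.8%) one 20 nt or more closer, and 54 lay within 20 nt. Over all eligible genes the same calls were made for 74.3% and 2.83%. The calls used the 20 nt limit alone and took no account of counting error. The SE of a single member can exceed 20 nt, as for alp41 above, so some calls can lie within counting error. The rule used the wild-type mean and a gene with a short 3′ UTR has little room to move closer, so nothing is read from these shares. The members' median difference was 104 nt (quartiles 17.5 and 274 nt), and that of all eligible genes was 65.9 nt (quartiles 18.8 and 157 nt). Of the members, 228 were 100 nt or more further, 38 were 100 nt or more closer and 54 were 500 nt or more further. These counts were made over the members alone, so nothing particular to members is read from them. Among the 407 members with no other coding gene inside, 314 were further and 47 closer, with a median difference of 114 nt. Among the 43 with one, 20 were further and 15 closer, with a median of 17.7 nt.

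Members further out outnumbered those closer at each wild-type length. The lengths are one term of the difference, so the change along them is a description from which nothing is read. Of the 142 members with wild-type means from 500 to 600 nt, 117 were further and 11 closer in nmt1-SEB1. Of the 150 from 600 to 800 nt, 110 were further and 18 closer, and of the 112 from 800 to 1200 nt, 84 were further and 15 closer. Of the 46 members at 1200 nt or more, 23 were further and 18 closer, with a median difference of 13.3 nt, and 14 of these 46 had another coding gene inside. The other eligible genes with an annotated 3′ UTR of 500 nt or more, which numbered 517 and had a median wild-type mean of 336 nt, were further in 440 cases and closer in 11, with a median difference of 143 nt. In nmt1-SEB1, 434 of the 3222 other eligible genes had a mean of 500 nt or more. Those 3222 include the 25 genes left out as a single tight site, which were past 500 nt in wild type already.

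**Figure D2:**
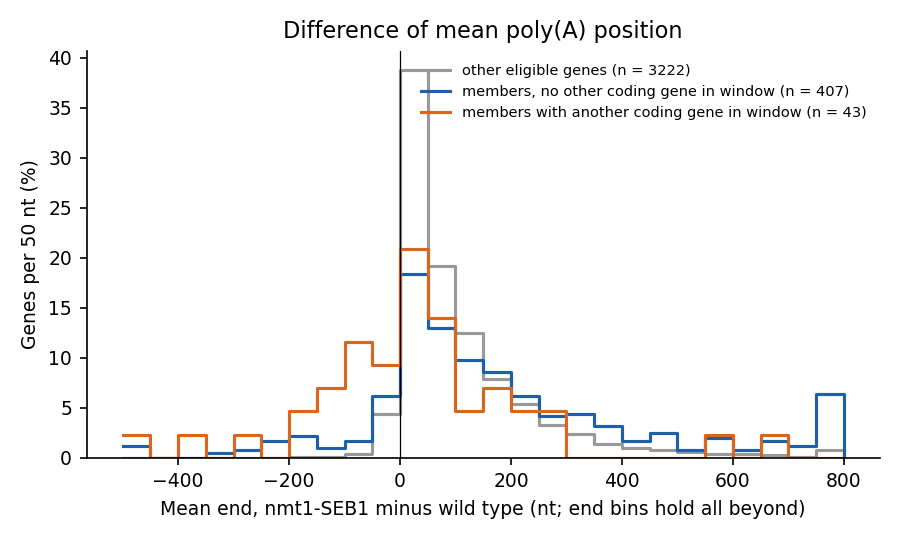
Lines give the percent of genes per 50 nt bin of the difference in mean end, nmt1-SEB1 minus wild type (x axis, nt), for 407 members without and 43 members with another coding gene in the window and for 3222 other eligible genes; the end bins hold all genes beyond them. The line for members without an inner coding gene has a longer tail to the right, and the line for members with one reaches further to the left.

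Among members with at least 100 reads in both libraries, the 4 with the largest gain in distal share had an nmt1-SEB1 site that was almost unused in wild type. These 4 were taken with sites ranked by the reads at their highest position. With sites ranked by all their reads, the distal share of ypt2 went from 2.96% to 97.9% (1259 against 782 nt), so the choice depends on the ranking. For but2, of the But2 family, 5697 wild-type reads gave a mean of 509 ± 0.686 nt (SE) and 4995 nmt1-SEB1 reads one of 704 ± 1.66 nt (SE). Its wild-type reads filled sites at 485 and 542 nt, with 38.6% and 52.8%. Of the reads at the 485 and 809 nt sites, 0.272% were at 809 nt in wild type (6 of 2203 reads, 95% Wilson interval 0.125 to 0.593%) and 92.7% in nmt1-SEB1 (2503 of 2699). With 542 nt as the other site the shares at 809 nt were 0.199% and 90.4%. Most nmt1-SEB1 reads were at 642 and 809 nt, which held 5 and 6 wild-type reads. For ams2, the gene of a GATA-type transcription factor of histone gene expression, 0 of 149 wild-type reads of the pair were at 956 nt, which allows a share of up to 2.01%, and in nmt1-SEB1 220 of 241 were (91.3%). Its mean moved from 686 to 895 nt. For uvi15, the gene of a plasma membrane protein, 0 of 156 wild-type reads of the pair were at 937 nt, which allows up to 1.92%, and 337 of 348 nmt1-SEB1 reads were (96.8%). Its annotated 3′ UTR is 157 nt, so nearly all its reads in both libraries lay past the annotated end. SPAC1B3.02c, of the Elf1 family of transcription elongation factors, went from 1.88% to 92.4% at 809 nt over a site at 599 nt.

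Among members with at least 100 reads in both libraries, the largest downstream differences in mean end were in spc25, nta1, shf1 and prp17. The mean end of spc25, which encodes a subunit of the Ndc80 kinetochore complex, was 701 ± 43.8 nt (SE, 115 reads) in wild type and 2804 ± 55.8 nt (SE, 324 reads) in nmt1-SEB1. Its wild-type ends were most often at 414 and 642 nt, the latter opposite the coding sequence of cnd3. Its nmt1-SEB1 ends were most often at 3151 and 3381 nt, with 66 and 79 reads against 1 wild-type read each, and the latter lay opposite par1. For ryh1, a Rab GTPase of endosome to Golgi transport, the mean went from 1066 ± 14.9 nt (SE, 173 reads) to 1820 ± 25.1 nt (SE, 326 reads). The site at 2088 nt held 67.2% of nmt1-SEB1 reads and 0 of 173 wild-type reads, which allows up to 1.73%. The H2B ubiquitin ligase subunit gene shf1 moved from 632 to 2138 nt, nta1, for an N-terminal amidase, from 1393 to 2926 nt, and the casein kinase 2 regulatory subunit gene ckb1 from 853 to 1592 nt. In prp17, a splicing factor gene, and in SPCC613.03 and SPCC11E10.09c the top site stayed at 545, 538 and 418 nt. A smaller set of nmt1-SEB1 reads lay at sites 2743, 2930 and 3400 nt past the stop codon, and the nmt1-SEB1 means were 2332, 1616 and 1353 nt, against 990, 706 and 557 nt in wild type. In prp17 a further site, at 6043 nt, held 45 nmt1-SEB1 reads (8.62%) and 0 wild-type reads.

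In other members the site nearer the stop codon had the larger share in nmt1-SEB1. The histone chaperone gene nap1 had 1667 wild-type reads with a mean of 704 ± 4.99 nt (SE) and 1905 nmt1-SEB1 reads with a mean of 576 ± 7.15 nt (SE). Its distal share at 810 against 262 nt was 84.2% in wild type (95% Wilson interval 82.2 to 86.0%) and 40.9% in nmt1-SEB1 (38.5 to 43.4%). Further downstream, sites at 977 and 1035 nt held 156 and 105 nmt1-SEB1 reads against 0 and 5 wild-type reads, so nap1 ends spread in both directions. For mrp17, a mitochondrial ribosomal protein gene, the site at 55 nt held 26.4% of 121 wild-type reads and 67.6% of 611 nmt1-SEB1 reads, the largest share in each library, and the mean went from 1153 to 485 nt. The distal share of apm4, for a clathrin adaptor subunit, was 43.7% in wild type and 5.22% in nmt1-SEB1 (919 against 63 nt). That of php2, for a CCAAT-binding factor subunit, was 63.4% and 30.6% (967 against 445 nt), and that of the Mediator gene pmc4 was 66.1% and 17.1% (778 against 401 nt). The phosphatase gene psr1 was mixed. Its main wild-type site at 552 nt held 75.7% of wild-type and 13.9% of nmt1-SEB1 reads, the site at 142 nt 4.58% and 16.2%, and the site at 657 nt, the largest in nmt1-SEB1, 7.01% and 37.8%. Its means were 541 and 606 nt. SPBC1539.02 held 33.8% of wild-type and 62.6% of nmt1-SEB1 reads at 908 nt. Its means were 1590 and 1321 nt, with 39.6% of its wild-type reads past the start of SPNCRNA.442.

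**Figure D3:**
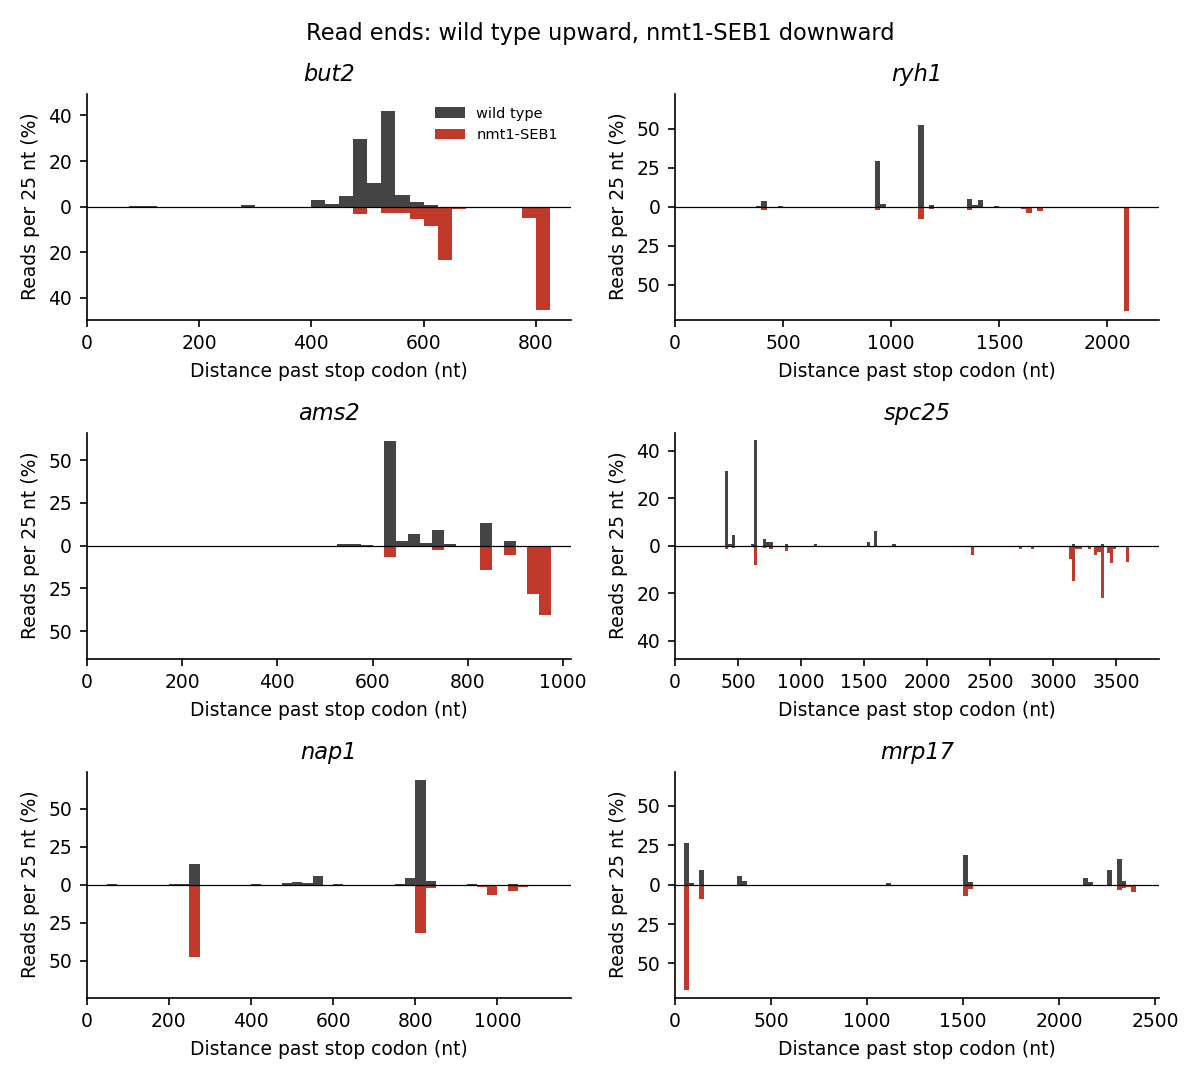
Percent of each gene's reads in 25 nt bins (y axis) by distance past the stop codon (x axis, nt), with wild type upward in grey and nmt1-SEB1 downward in red. In but2, ryh1, ams2 and spc25 the tallest red bar stands to the right of the tallest grey one, and in nap1 and mrp17 the tallest red bars hold the sites at 262 and 55 nt.

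For the list as a whole, the 2 sites with the highest single positions, taken as the mean share of both libraries, could be compared in 358 members. The distal one had a share 10 points or more higher in nmt1-SEB1, with Wilson intervals that did not overlap, in 183 (51.1%) and lower in 40 (11.2%), where all genes tested gave 63.6% and 2.92%. Without an inner coding gene it was higher in 170 of 324 and lower in 35, and with one higher in 13 of 34 and lower in 5. With sites ranked by all their reads instead, 69 members had another pair, and of 367 members 190 were higher and 41 lower. The shares over all genes tested are not given for that ranking, so nothing particular to members is read from these counts. The median distal share was 41.0% in wild type and 68.8% in nmt1-SEB1. The top site stayed within 24 nt in 232 members (51.6%; 59.7% of all eligible genes), moved downstream in 175 (38.9%; 37.7%) and upstream in 43 (9.56%; 2.56%). Ranked by all their reads, the counts were 227 (50.4%; 59.0% of all eligible genes), 184 (40.9%; 38.6%) and 39 (8.67%; 2.37%). In 87 members the top nmt1-SEB1 site held under 5% of wild-type reads, and 79 of those sites were downstream and 8 upstream. That count was made over the members alone, so nothing particular to members is read from it. The share of reads within 300 nt of the stop codon was 10 points or more lower in 81 members (18%; 39.8% of all eligible genes) and higher in 19 (4.22%; 1.01%). Members had a median of 5.56% of wild-type reads there and other eligible genes 98.7%, so most members had no room to fall by 10 points. The rule thus sets these shares apart, as it can those of the distal site and of the moves upstream, and nothing is read from the contrasts. The share more than 200 nt past the annotated end was higher in 86 members (19.1%; 22.2%) and lower in 10 (2.22%; 0.517%). Pooled over the 407 members without an inner coding gene, reads past that point were 7.87% in wild type (95% Wilson interval 7.70 to 8.05%) and 14.9% in nmt1-SEB1 (14.7 to 15.1%). Over the 43 with one they were 86.3% and 78.7%, over all members 27.1% and 25.1%, and over the other eligible genes 2.04% and 11.2%. Pooled shares weigh each gene by its reads. The mug106 window alone held 16043 of the 29711 wild-type reads of the 43. Together with the wsp1 window it held 17.5% of the wild-type reads of all members. Nothing is therefore read from the pooled shares of the 43 or of all members.

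Several features that the rule did not use were compared with the other eligible genes as descriptions. AATAAA stood in the 50 nt before the top wild-type site of 91 members (20.2%), against 20.4% of the others, and AATAAA or AATGAA in 129 (28.7%), against 29.4%. TGTA stood in the 100 nt after that site in 282 members (62.7%) and in 64.0% of the others. Both motifs were read on the transcript strand only. TGTA was found after the site of 62.9% of members that moved further, 61.1% of those within 20 nt and 62.9% of those that moved closer. The members and the other genes thus held these letters at near-equal shares. Between the stop codon and 50 nt before the top site, 178 members (39.6%) had an AATAAA further upstream, against 10.1% of the others, in a stretch that is longer by the rule.

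Neighbouring genes and further features were compared in the same way. The next coding gene was convergent for 265 members (58.9%) and for 55.6% of the others. The top wild-type site lay opposite the coding sequence of a gene on the other strand in 101 members (22.4%), against 4.07% of the others, and a distant site has more chance to do so. Examples are ste13 opposite cog6, edc3 opposite SPBC18E5.10, ryh1 opposite pud1 and prp17 opposite fab1. Members had shorter coding sequences, with a median of 939 against 1182 nt, and their stretch from stop codon to top site had a median A+T content of 67.4% against 71.2%. That stretch is longer by the rule. In the 100 nt before the top wild-type site the medians were 69% and 71%. An intron past the stop codon was annotated in 19 members (4.22%) and in 0.900% of the others, and a longer 3′ UTR has more room for one. Chromosome III held 108 members among 643 eligible genes, chromosome II 169 among 1363 and chromosome I 173 among 1666.

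Among 7 gene lists, the share with a long wild-type 3′ UTR was 12.3% over all eligible genes (450 of 3672). It was 10 of 42 for RNA-binding proteins and mRNA regulators, 7 of 33 for cell wall genes, 11 of 59 for kinases of growth, stress and cell cycle and 7 of 44 for transcription factors. It was 3 of 41 for transporters, 2 of 30 for the actin ring and septation and 2 of 138 for cytosolic ribosomal proteins, whose median wild-type mean was 61.6 nt. Some entries do not bear out their list name. Of the 3 transporter entries, sst2 encodes a ubiquitin protease and isp7 an oxygenase, rpp21 is an RNase MRP subunit and no ribosomal protein, and the reads of cdc16 lay past the start of rps13. The counts of lists this small describe these 2 libraries only.

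**Figure D4:**
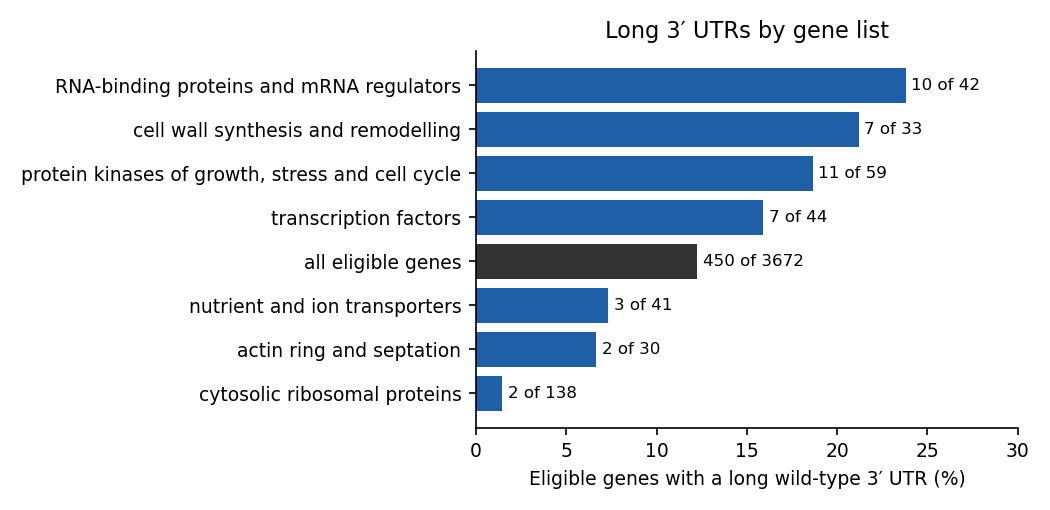
Bars give the percent of eligible genes of each list that are members, that is, have a long wild-type 3′ UTR (x axis), with the counts beside them. The black bar is the 12.3% over all eligible genes; 4 lists lie above it and 3 below.

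Of the 10 RNA-binding and mRNA regulator members, 7 were further in nmt1-SEB1, 2 within 20 nt and 1 closer, and of the 42 eligible genes of the list 30 were further and 1 closer. As for the lists that follow, the shares over all eligible genes are 74.3% and 2.83%, and nothing is read from counts this small. The decapping enhancer gene edc3 had means of 1081 ± 11.3 nt (SE, 519 reads) and 1431 ± 4.92 nt (SE, 2097 reads), with a distal share of 16.8% and 92.1% (1525 against 1065 nt). The KH-domain protein gene rnc1 moved from 960 to 1249 nt and the Dhh1 helicase gene ste13 from 581 to 694 nt, while sum3, of translation initiation, had means of 702 and 707 nt. The nuclear poly(A)-binding protein gene pab2 had means of 569 and 721 nt, and zfs1, a zinc finger protein of mRNA decay, of 507 and 884 nt.

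Of the 11 kinase members, 7 were further, 1 within 20 nt and 3 closer, and of the 59 eligible genes of the list 48 were further and 4 closer. The casein kinase 1 gene hhp1 had a distal share of 68.1% in wild type and 28.4% in nmt1-SEB1 (830 against 597 nt), with means of 743 and 642 nt. The mitotic inhibitor gene wee1 kept its site at 851 nt, with 73.8% of 554 and 74.7% of 344 reads. The S6 kinase gene sck2 moved from 756 to 893 nt with only 36 nmt1-SEB1 reads, and the checkpoint kinase gene rad3 from 577 to 1563 nt. The other 2 that were closer, tel1 and cdk9, have another coding gene inside.

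Of the 7 transcription factor members, 5 were further, 1 within 20 nt and 1, php2, closer, and of the 44 eligible genes of the list 34 were further and 2 closer. The G1/S repressor gene nrm1 had a distal share of 4.26% in wild type (4 of 94 reads) and 73.9% in nmt1-SEB1 (1447 against 224 nt), and its mean moved from 615 to 1106 nt. A site between these, at 977 nt, held 38.3% of its wild-type and 1.29% of its nmt1-SEB1 reads. Of the 7 cell wall members 5 were further and 2 closer, and of the 33 eligible genes of the list 23 were further and 2 closer. The sensor genes mtl2 and wsc1 had means of 1036 and 859 nt and of 1007 and 1069 nt.

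Read number per gene was compared as a ratio, scaled to all gene reads of the library, in 443 members. Of these, 126 (28.4%) were 2-fold or more higher in nmt1-SEB1 with an interval excluding 1, and 51 (11.5%) lower, where the 4701 coding genes with 20 reads summed gave 26% and 17%. Over the 3654 of these that were eligible as the members were, the shares were 21.0% and 17.8%. The split turns over with the scaling, which moves the ratios of all genes alike, so nothing about the members is read from it. Under TMM scaling, which moves all log2 ratios by −0.68, 61 were higher and 111 lower, and under median-of-ratios scaling 55 were higher and 127 lower. In bulk cultures, fewer cells with a transcript and less of it per cell cannot be told apart.

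The ratios below are scaled to all gene reads. Over the 443 members log2 ratios ran from −3.28 to 4.76. Among members with at least 100 window reads in both libraries the highest was that of ypt2, a Rab GTPase gene of secretion, with 344 wild-type and 3093 nmt1-SEB1 reads and a log2 ratio of 2.86 (ratio 7.28, 95% exact interval 6.51 to 8.17). Its ends moved too, as the site at 1259 nt held 1.16% of wild-type and 80.6% of nmt1-SEB1 reads. The SNARE gene gos1 had 102 and 560 reads (log2 ratio 2.15) and kept its site at 720 nt, and the mitophagy receptor gene atg43 had 261 and 1420 reads (2.14). The lowest in the same set was that of gaf1, a nutrient-responsive GATA factor gene, with 2601 and 430 reads (log2 ratio −2.90, ratio 0.134, interval 0.121 to 0.148). Reads assigned to wsp1 numbered 134 and 24, and those assigned to erp5 61 and 11, both in windows whose reads mostly lay past an inner gene start. Among the most read members, but2 had 5697 and 5011 reads (−0.49) and adg2 had 3080 and 1021 (−1.90), with its mean moving from 614 to 689 nt. The scaling shifts of −0.68 and −0.79 turn the sign of none of the ratios named here.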

How the data were processed

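Poly(A) site reads were counted per genome position and strand. The authors deposited 1 table of whole-number counts per library. Bowtie2 and the ASM294v2 build are named per the submitters' processing notes; for the aligner version, read filters and treatment of A runs, the entry is "not given in the sources used here". Genes came from the RefSeq annotation, whose 3 nuclear chromosomes hold all positions used. At the deposited positions 91.8 to 92.6% of reads end on a genomic A on either strand and at most 0.525% are followed by one, which fixes the count from 1. Reads on other contigs (0.154% and 0.0896%) were left out. Distances count bases past the stop codon. Clusters were ranked by the reads at their highest position, where the planned test named the 2 largest clusters; ranking by all reads is an alternative chosen after seeing the data. Reads were given to genes for ratios, and the windows were read apart from that. No p-values were computed. Computation used Python 3.11.15, NumPy 2.4.6, SciPy 1.17.1 and, for size factors, edgeR 4.0.16 in R 4.3.3, and was tested on simulated data. Members, gene lists and the rule for named genes were chosen with earlier results of these data known. Named genes are members with 100 reads in each library that rank highest for length, shift in either direction, reads, distal share or ratio, those at the limits, and up to 4 per list by reads (1 list is not reported here); genes beyond it (pab2, zfs1, rad3, tel1, cdk9) were named after their values were seen. Alternatives changed the read minimum, length limit, window, cluster pairs, near and past distances, A-run filter, mean against median and scaling.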

Additional observations from a re-analysis of the deposited data

How the results depend on the processing

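No paired analysis was possible because each strain has 1 library, and for the same reason no replicate could be left out. Of 78 recomputed summary counts, 63 stayed within 1.5 times the reported count. The counts that follow are over members alone and stand without the shares over all eligible genes. Nothing particular to members is read from them. With 100 reads required in each library, 143 members were further and 23 closer, and the distal share was higher in 71 and lower in 13, as fewer genes qualify. With members taken from 600 nt, 217 were further. With the first and last cluster as the pair, the distal share was lower in 14. With 200 nt as the near limit, the near share was higher in 10. The share past the annotated end was higher in 130 members when only coding genes ended the window, in 137 for 100 nt past the end and in 29 for 500 nt. It was lower in 6 without members that have an inner coding gene, an alternative chosen after seeing the data. TMM gave 61 higher and 111 lower read ratios, and median of ratios 55 and 127. Of 445 recomputed differences of single named genes, 369 stayed within the 95% counting interval, 70 moved beyond it and 6 changed sign: SPBP8B7.32 to −52.4 nt without positions before A runs, yip11 to 3 nt, atg43 to 4 nt and wsc1 to −3 nt for the median, psr1 to −20.5 nt for reads up to 200 nt past the annotated end, and wsp1 to −3.95 nt with the window ended at the first coding start (chosen after seeing the data). Of single distal share calls, ranking clusters by all their reads (chosen after seeing the data) turned psr1 from lower (94.3% to 46.2%, 552 against 142 nt) to higher (8.47% to 73.1%, 657 against 552 nt). The cause was not tested. Low read numbers limit single members: the median member had 97.5 wild-type reads.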
